A study of Mus musculus with 6 samples.

Results

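CD45, encoded by *Ptprc*, is the abundant receptor-type tyrosine phosphatase of leukocytes, and *Hnrnpll* encodes an RNA-binding protein that acts on its splicing. Both genes were taken by their gene names from the 6 per-library files, as 2 of 54446 genes, with 13 annotated transcripts of *Ptprc* and 7 of *Hnrnpll* among 137767. RNA-Seq had been performed on CD8+ T cells from spleens of 8-week-old C57BL/6 mice, with 2 libraries in each of 3 groups. Unstimulated cells were fresh cells kept without magnets. Control cells had received antibodies to CD3 and CD28 over 72 h in the absence of magnets, and SMF cells the same antibodies over the same time in a 0.3 T static magnetic field. No label ties a library to a mouse or a culture, so p values measure only the spread between these libraries.

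CD45 removes the inhibitory phosphate from the kinases Lck and Fyn and so sets the threshold of T cell receptor signalling. Exons 4, 5 and 6 of *Ptprc* encode the A, B and C segments of its outer part and can each be kept or skipped. Naive T cells keep some of them, B cells keep all of them (the form known as B220), and activated and memory T cells make more of the short form without them, CD45RO. The hnRNPLL protein is known for binding C- and A-rich RNA, including CACA, and for favouring the skipping of these exons, and its level is known to rise when T cells are activated.

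*Ptprc* (ENSMUSG00000026395.16) lies on the minus strand of GRCm38 at chr1:138062861-138175708, and *Hnrnpll* (ENSMUSG00000024095.15) on the minus strand at chr17:80029487-80062334. Exons of *Ptprc* were numbered from 1 to 33 in Ptprc-207, the annotated transcript that holds every variable exon. All of exons 4 to 7 are coding. Exon 7 was variable too in this annotation, since Ptprc-204 skips it. The 4 variable exons are printed here 5′ to 3′ because the comparisons turn on them, with each CACA in capitals. They were read from the GENCODE M21 transcripts on GRCm38, minus strand.
Ptprc exon 4, chr1:138122456-138122584: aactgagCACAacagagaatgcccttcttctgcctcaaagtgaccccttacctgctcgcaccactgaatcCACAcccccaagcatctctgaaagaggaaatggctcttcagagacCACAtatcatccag
Ptprc exon 5, chr1:138120020-138120166: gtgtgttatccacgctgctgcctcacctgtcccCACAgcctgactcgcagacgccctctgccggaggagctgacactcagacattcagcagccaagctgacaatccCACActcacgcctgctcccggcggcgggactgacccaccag
Ptprc exon 6, chr1:138117754-138117894: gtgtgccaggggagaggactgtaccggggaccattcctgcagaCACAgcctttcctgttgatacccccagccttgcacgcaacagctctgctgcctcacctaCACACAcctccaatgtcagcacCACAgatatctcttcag
Ptprc exon 7, chr1:138116954-138117025: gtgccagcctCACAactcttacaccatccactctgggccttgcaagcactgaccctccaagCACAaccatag

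CACA was searched on the transcribed strand, and overlapping matches were counted separately. It occurred 3 times in exon 4, 2 times in exon 5, 4 times in exon 6 and 2 times in exon 7. Of 84940 whole-coding internal exons of 72 to 147 bases, the range of these 4 exons, 40.1% held CACA at least once. C and A together made up 64.3%, 59.9%, 58.2% and 66.7% of the bases of exons 4, 5, 6 and 7, against a median of 51.3% over the same exons. Exons 4 and 7 lay above 98.8% and 99.6% of those exons, and exons 5 and 6 above 93.6% and 88.7%. A match describes the letters and is not a binding site.

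The forms differ at the join after exon 3, shown as the 24 bases of exon 3 followed in capitals by the first 24 bases of what comes next in each complete coding transcript.
Ptprc-207, exon 3 to exon 4: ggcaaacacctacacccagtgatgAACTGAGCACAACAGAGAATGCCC
Ptprc-203, exon 3 to exon 7: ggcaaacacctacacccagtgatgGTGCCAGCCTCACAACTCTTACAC
Ptprc-204, exon 3 to exon 8: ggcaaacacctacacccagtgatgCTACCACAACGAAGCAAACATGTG
Exon 8, like exon 3, is no longer than these 24 bases. Ptprc-203 is the CD45RO form, without exons 4, 5 and 6. Ptprc-204 lacks exon 7 as well. Ptprc-213, which is annotated without its 3′ end, holds exon 5 of the 3 and so carries the B segment.

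Levels are given in FPKM, a count of fragments divided by transcript length and by the size of the library, and coverage is the average depth in reads per base. They hold no read counts, so depth was taken as the bases covered, which ranged from 64.4 to 259 Mb. Control replicate 1 (64.4 Mb) and unstimulated replicate 1 (67.4 Mb) were the shallowest. By the file headers, unstimulated and control libraries of the same number came from the same dated folder, and both SMF libraries came from another folder, dated October 2018, so that field and folder cannot be told apart. Protein-coding genes held 49.1% to 50.5% of the FPKM in unstimulated and control libraries and 68.7% to 69.2% in SMF libraries. CD8 T cell markers were present throughout, with *Cd8a* between 35.5 and 192 FPKM and *Cd3e* between 66.3 and 102 FPKM. In bulk RNA, fewer cells of a type and less RNA per cell cannot be told apart.

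*Hnrnpll* was higher in every stimulated library than in both unstimulated libraries. It stood at 4.61 and 3.79 FPKM in unstimulated replicates 1 and 2, at 18.97 and 19.1 FPKM in control replicates 1 and 2, and at 28.1 and 19.5 FPKM in SMF replicates 1 and 2. The unstimulated and stimulated libraries did not overlap, and SMF replicate 1 was the highest of the 6. Group means were 4.20 ± 0.58 FPKM in unstimulated, 19.04 ± 0.09 FPKM in control and 23.8 ± 6.06 FPKM in SMF cells (SD, n = 2 each). The mean of control cells was 4.53 times that of unstimulated cells, and the mean of SMF cells 5.66 times.

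Differences were tested with limma on log2(FPKM + 1) over 14991 genes whose mean reached 1 FPKM. A gene was called when it changed 2-fold or more with an unadjusted p no higher than 0.05, and p values adjusted over all genes are given beside the calls. *Hnrnpll* was called higher in control than in unstimulated cells (log2 fold change 1.95, SE 0.38, limma adjusted p = 0.0334), where 24.8% of all genes tested were called. It was called higher in SMF than in unstimulated cells (2.23, SE 0.38, limma adjusted p = 0.0128), where 37.2% were called. Within the June 2017 folder the control library stood 4.11 times above the unstimulated library, and within the November 2017 folder 5.04 times.

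Between SMF and control cells *Hnrnpll* was not called (log2 fold change 0.28, SE 0.38, limma adjusted p = 0.697), in a comparison where 18.2% of genes were called. SMF replicate 2 (19.5 FPKM) lay just above both control libraries. Over the 14991 genes the median difference was 0.32 (log2) for SMF against control and 0.27 for SMF against unstimulated cells. After every library was shifted to the same median, *Hnrnpll* was at -0.057 for SMF against control and at 1.98 for SMF against unstimulated cells. The rise with stimulation thus passed the same thresholds on both scales, and the sign of the small SMF difference did not hold.

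**Figure D1:**
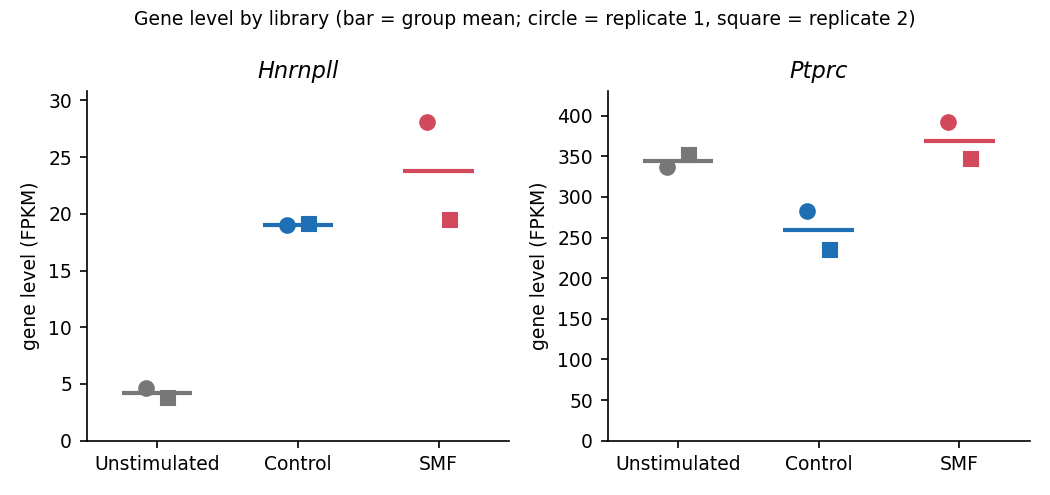
Gene level in FPKM of Hnrnpll (left) and Ptprc (right) by group, with a circle for replicate 1, a square for replicate 2 and a bar for the mean of the 2 libraries. All 4 stimulated libraries sit above both unstimulated libraries for Hnrnpll, whereas for Ptprc the 2 control libraries sit below the other 4.

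The reads behind the *Hnrnpll* level were spread differently in the groups. In unstimulated replicate 1, 1 of the 13 exons of Hnrnpll-201 had any coverage, and that was exon 1, at 1.91 reads per base. In unstimulated replicate 2, 3 of the 13 exons had coverage, and exon 1 held 71.1% of the covered bases. In the 4 stimulated libraries 12 or 13 exons were covered, and exon 1 held 72.5% and 44.3% of the covered bases in control replicates 1 and 2, and 43.9% and 32.5% in SMF replicates 1 and 2. The unstimulated levels therefore rested on the first 1 to 3 exons.

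Exon levels are coverage multiplied by the FPKM per unit of coverage of the library, and are on the FPKM scale. Exon 1 of *Hnrnpll* was at 21.2 and 11.6 in unstimulated replicates 1 and 2, at 54.0 and 40.8 in control replicates 1 and 2, and at 54.9 and 28.8 in SMF replicates 1 and 2. All 4 stimulated libraries were above both unstimulated ones in exon 1 alone. The other 12 exons together were at 0 and 1.31 in unstimulated, 5.69 and 14.3 in control and 19.5 and 16.6 in SMF replicates 1 and 2. Every stimulated library was above both unstimulated libraries in 10 of the 13 exons. Both unstimulated libraries were at 0 in 10 of the 13 exons, where any coverage in all 4 stimulated libraries gives this order. Both SMF libraries were above both control libraries in 4 exons, and both control libraries above both SMF libraries in 1. How often such orders occur over all exons was not counted, and the exons of a gene are not separate tests. Over all genes the median difference of SMF against control was 0.32 (log2).

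**Figure D2:**
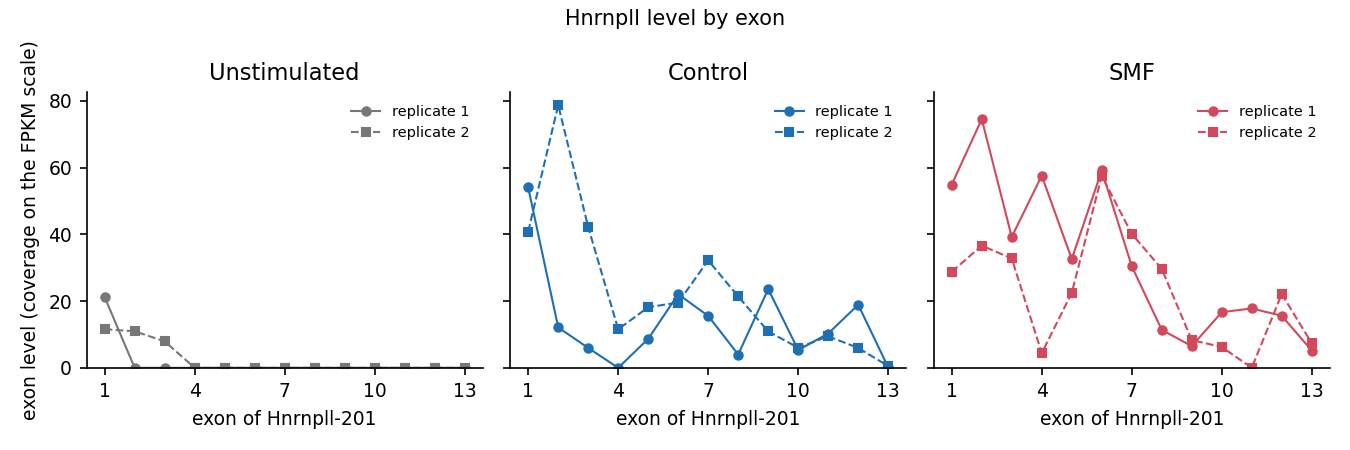
Exon level (coverage on the FPKM scale) over the 13 exons of Hnrnpll-201, with a panel per group, a solid line for replicate 1 and a dashed line for replicate 2. The unstimulated lines lie at 0 from exon 4 on, and the stimulated lines stay above 0 in 12 or 13 exons.

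Of the 7 annotated *Hnrnpll* transcripts, 5 reached a mean of 1 FPKM. Hnrnpll-201 and Hnrnpll-205 are coding. Hnrnpll-201 was at 4.61 and 2.5 FPKM in unstimulated, 7.38 and 5.84 FPKM in control and 7.88 and 18.2 FPKM in SMF replicates 1 and 2. Hnrnpll-205 was listed at 0 except in control replicate 2 (7.01 FPKM) and SMF replicate 1 (10.3 FPKM), so that the coding signal was divided between these transcripts in 2 libraries and not in the other 4. The 3 fragments with a retained intron, Hnrnpll-202, Hnrnpll-206 and Hnrnpll-207, ranged from 0 to 5.88 FPKM. Hnrnpll-203, a target of nonsense-mediated decay, was listed at 0 in all 6 libraries, and Hnrnpll-204 reached 0.35 FPKM in 1 library.

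Among these 5 transcripts, 1 was called in control against unstimulated cells, where 15.3% of the 27250 transcripts tested were called. It was Hnrnpll-207, listed at 0 in both unstimulated libraries and at 3.18 and 5.39 FPKM in the control libraries (limma adjusted p = 0.307). In SMF against unstimulated cells 1 of 5 was called, Hnrnpll-201 (log2 fold change 1.56, SE 0.60, limma adjusted p = 0.184), against 25.1% of all transcripts. In SMF against control cells 0 of 5 were called, against 12.7% of all transcripts. As shares of the gene, 0 of the 5 were called in any of the 3 comparisons.

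*Ptprc* itself stood between 235 and 392 FPKM in the 6 libraries and differed less than 2-fold between groups. Its level was 337 and 352 FPKM in unstimulated replicates 1 and 2, 282 and 235 FPKM in control replicates 1 and 2, and 392 and 346 FPKM in SMF replicates 1 and 2. Both control libraries lay below the other 4, and the SMF and unstimulated libraries overlapped. *Ptprc* was called in 0 of the 3 comparisons. Its log2 fold change was -0.42 for control against unstimulated (SE 0.21, limma adjusted p = 0.27) and 0.10 for SMF against unstimulated (SE 0.21, limma adjusted p = 0.767). For SMF against control it was 0.51 (SE 0.21, limma adjusted p = 0.237), which is under 2-fold although the unadjusted p was below 0.05, and 0.17 after every library was shifted to the same median.

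The 13 *Ptprc* transcripts fell into 3 classes. Ptprc-207, Ptprc-213, Ptprc-206 and Ptprc-212 hold at least 1 of exons 4, 5 and 6. Ptprc-203 and Ptprc-204 cross the region without them. The other 7 do not show whether a spliced transcript keeps these exons. Ptprc-201 starts in the intron before exon 8, and Ptprc-202, Ptprc-205, Ptprc-208 and Ptprc-209 end before exon 4. Ptprc-211 is an unspliced stretch after exon 8, and Ptprc-210 is an unspliced stretch that runs through exons 5 and 6. A mean of at least 1 FPKM was reached by 9 of the 13. Ptprc-206 and Ptprc-212 were listed at 0 throughout, and Ptprc-208 and Ptprc-209 stayed between 0 and 1.07 FPKM.

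Transcripts that keep any of exons 4, 5 and 6 each stood at 27.6 FPKM or less in every library. Ptprc-207, with all of them (the CD45RABC form), was at 1.70 and 3.86 FPKM in unstimulated, 0.20 and 1.42 FPKM in control and 6.61 and 6.45 FPKM in SMF replicates 1 and 2. Both SMF libraries exceeded the other 4. Ptprc-213, with exon 5, was at 5.29 and 27.6 FPKM in unstimulated, 26.8 and 17.5 FPKM in control and 1.14 and 18.3 FPKM in SMF replicates 1 and 2. Its 3 groups overlapped, and its 2 unstimulated values differed more than 5-fold.

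The level listed for the CD45RO transcript Ptprc-203 was higher in all stimulated libraries. Outside unstimulated replicate 1 that level lay mostly in exons shared with other transcripts. It was at 1.60 and 27.9 FPKM in unstimulated, 123 and 105 FPKM in control and 109 and 71.5 FPKM in SMF replicates 1 and 2. No stimulated library overlapped the unstimulated ones, while the control and SMF libraries overlapped. Ptprc-204, without exons 4 to 7, was listed at 0 in unstimulated replicate 1 and in both control libraries, and was at 25.6 FPKM in unstimulated replicate 2 and at 211 and 186 FPKM in the SMF libraries. The SMF libraries stood far above the other 4 for this transcript, in a comparison where field and folder cannot be told apart.

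Most of the unstimulated *Ptprc* signal was assigned to Ptprc-201, the transcript that starts after the variable exons. It was at 291 and 228 FPKM in unstimulated, 117 and 95.4 FPKM in control and 35.7 and 42.3 FPKM in SMF replicates 1 and 2, and the 3 groups did not overlap. The unspliced fragment Ptprc-210 was at 24.4 and 28.7 FPKM in unstimulated, 8.92 and 2.95 FPKM in control and 12.9 and 10.02 FPKM in SMF replicates 1 and 2. Both unstimulated libraries were above the other 4. The 5′ fragment Ptprc-202 was at 10.7 and 6.47 FPKM in unstimulated, 1.94 and 2.22 FPKM in control and 8.97 and 3.04 FPKM in SMF replicates 1 and 2, and Ptprc-211 was between 0.28 and 3.58 FPKM. The 5′ fragment Ptprc-205 was listed at 0 in both unstimulated libraries and was at 2.32 and 9.89 FPKM in control and 5.92 and 6.5 FPKM in SMF replicates 1 and 2.

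**Figure D3:**
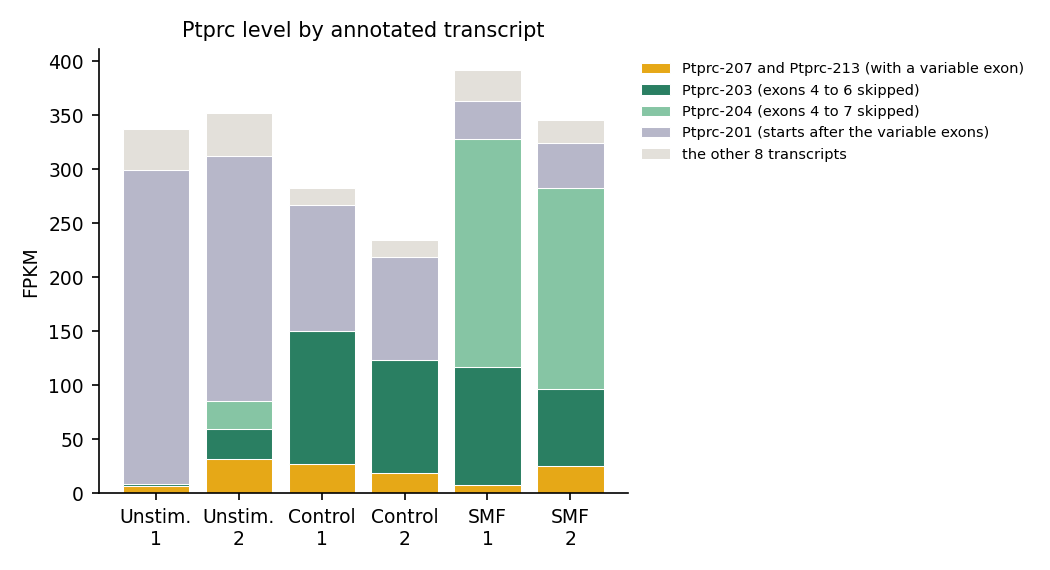
Ptprc level in FPKM for each library (2 per group), stacked by annotated transcript: Ptprc-207 with Ptprc-213 (which hold any of exons 4 to 6), Ptprc-203, Ptprc-204, Ptprc-201 and the other 8. Ptprc-201 makes up 86.2% and 64.6% of the unstimulated bars, and Ptprc-204 makes up 53.8% of each SMF bar and 0% of the control bars.

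In limma's fit over transcripts, 4 of the 9 *Ptprc* transcripts tested were called in control against unstimulated cells, where 15.3% of all transcripts were called. Ptprc-201 was lower (log2 fold change -1.28, SE 0.28, limma adjusted p = 0.118) and Ptprc-210 was lower (-2.13, SE 0.58, adjusted 0.168). Ptprc-203 was higher (3.73, SE 1.1, limma adjusted p = 0.198). Ptprc-205, a 5′ fragment listed at 0 in both unstimulated libraries, was also called (limma adjusted p = 0.189). The Ptprc-203 difference was 1.99 without unstimulated replicate 1 and 5.46 without unstimulated replicate 2. Both were called, on the assumption that the lone unstimulated library varies like the other groups. Without either control library or either SMF library the difference was 3.61 to 3.84 and was not called, with 2 residual degrees of freedom and an adjusted p of 0.408 to 0.445.

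In SMF against unstimulated cells 4 of 9 were called, against 25.1% of all transcripts. Ptprc-201 was lower (log2 fold change -2.70, SE 0.28) with a limma adjusted p of 0.0195, the 1 call of a *Ptprc* transcript in the 3 comparisons that passed an adjusted 0.05. Ptprc-203 (3.36, SE 1.1, limma adjusted p = 0.133), Ptprc-204 (5.27, SE 1.48, adjusted 0.0993) and Ptprc-205 (adjusted 0.0861) were higher. Without unstimulated replicate 1 the differences were 1.63 for Ptprc-203 and 2.91 for Ptprc-204, and without unstimulated replicate 2 that of Ptprc-203 was 5.10, all of them called on the same assumption. Without either control library or either SMF library neither transcript was called, at differences of 3.06 to 3.67 for Ptprc-203 and 5.18 to 5.36 for Ptprc-204.

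In SMF against control cells 3 of 9 were called, against 12.7% of all transcripts. Ptprc-201 was lower (log2 fold change -1.42, SE 0.28, limma adjusted p = 0.189) and Ptprc-207 higher (2.14, SE 0.66, adjusted 0.293). Ptprc-204 was higher (limma adjusted p = 0.187), and no fold is given because both control libraries are listed at 0. It was not called without either SMF library (adjusted p 0.442 and 0.385). Ptprc-203 was at -0.36 (SE 1.1) and Ptprc-213 at -1.82 (SE 1.24), and neither was called.

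As shares of the gene, 3 of 9 *Ptprc* transcripts were called in control against unstimulated cells, where 6.88% of the 18904 shares tested were called. These were Ptprc-203 (0.48% and 7.92% of the gene in unstimulated, 43.7% and 44.6% in control), Ptprc-205 and Ptprc-210, the last of them lower. In SMF against unstimulated cells 3 of 9 were called, against 11.6% of all shares: Ptprc-201 (86.2% and 64.6% against 9.12% and 12.2%), Ptprc-204 and Ptprc-205. In SMF against control cells 2 of 9 were called, Ptprc-201 and Ptprc-204, against 6.78% of all shares. None of these shares passed an adjusted 0.05 in limma, with 0 of 9 in each comparison.

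The share of *Ptprc* RNA with a variable exon, here any of exons 4 to 6, was formed from the 6 transcripts of the first 2 classes. It was 81.3% and 37.1% in unstimulated replicates 1 and 2, 18.0% and 15.3% in control replicates 1 and 2, and 2.36% and 8.77% in SMF replicates 1 and 2. The 3 groups did not overlap, and the share was highest in unstimulated and lowest in SMF cells. The means were 59.2% ± 31.3, 16.6% ± 1.89 and 5.57% ± 4.53 (SD, n = 2 each). The 3 differences were -42.6 percentage points for control against unstimulated, -53.6 for SMF against unstimulated and -11.1 for SMF against control. Each gave p = 0.333 in a two-sided exact permutation test, the smallest value that 2 against 2 allows, and 0.333 after adjustment over the 3.

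That share rests on little of the gene in the unstimulated cells. Transcripts with a variable exon summed to 6.99 and 31.5 FPKM and those without to 1.60 and 53.5 FPKM in unstimulated replicates 1 and 2, and 97.45% and 75.9% of the *Ptprc* FPKM there lay in transcripts that do not inform on the variable exons. The uninformative part was 46.7% and 47.3% in control and 16.3% and 18.4% in SMF replicates 1 and 2. It includes Ptprc-210, at 24.4 and 28.7 FPKM in unstimulated replicates 1 and 2. Reads in exons 5 and 6 that were assigned to Ptprc-210 are not in the share, which thus depends on that assignment. With complete transcripts alone, which leaves out Ptprc-213, the share was 51.5% and 6.73% in unstimulated, 0.16% and 1.34% in control and 2.02% and 2.44% in SMF replicates 1 and 2. The order of control and SMF then turned round, and both unstimulated libraries stayed above the other 4.

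Exon coverage was summed over all transcripts with the same exon boundaries. Coverage that was assigned to the unspliced Ptprc-210, which runs through exons 5 and 6, is not in these values, so they too depend on how reads were assigned. Exon 4 was at 23.7 and 12.9 in unstimulated, 7.95 and 8.57 in control and 18.6 and 15.3 in SMF replicates 1 and 2 on the FPKM scale. Exon 5 was at 7.29 and 45.0 in unstimulated, 22.4 and 9.76 in control and 7.85 and 34.7 in SMF replicates 1 and 2. Exon 6 was at 4.17 and 17.8 in unstimulated, 0 and 8.17 in control and 3.55 and 5.19 in SMF replicates 1 and 2. Both control libraries were lowest for exon 4, and the groups overlapped for exons 5 and 6.

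The constant exons 2 and 3 before them ranged from 41.9 to 145, and 17 of the 18 values of exons 4, 5 and 6 lay below both of these exons in the same library. The exception was exon 5 in unstimulated replicate 2, which lay above exon 2 and below exon 3. Exon 7 was between 29.8 and 109, with the highest value in SMF replicate 1 and the lowest in control replicate 1. Exon 8, of 24 bases, was at 0 in unstimulated replicate 1 and at 8.69 in control replicate 1, the 2 shallowest libraries, and between 50.1 and 92.1 in the other 4. The first exon of Ptprc-201 runs over exon 8, and its coverage is not counted in these values.

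**Figure D4:**
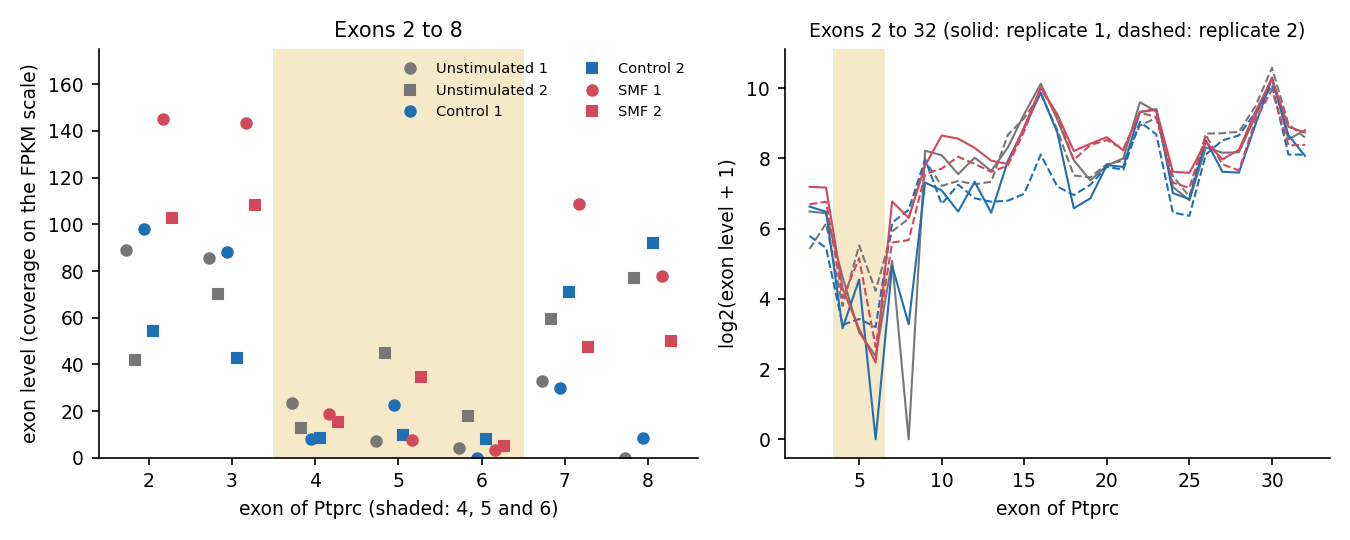
Exon level of Ptprc (coverage on the FPKM scale) in exons 2 to 8 (left), with a point per library, and log2(exon level + 1) over exons 2 to 32 (right), with a line per library in the same colours. Exons 4 to 6, shaded, lie between 0 and 45.0, and the groups overlap there in exons 5 and 6.

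Relative to the gene, exons 4 to 7 were not called in any comparison with limma, and 0 of these 4 exons had an unadjusted p under 0.05. The fit covered 157282 exons, of which 14.4% were called in control against unstimulated cells, 20.8% in SMF against unstimulated cells and 10.5% in SMF against control cells. For control against unstimulated cells the log2 difference was -0.58 (SE 0.47, limma adjusted p = 0.633) in exon 4, 0.12 (SE 1.08, adjusted 0.978) in exon 5 and -1.28 (SE 1.22, adjusted 0.69) in exon 6. For SMF against unstimulated cells it was -0.15 (SE 0.47), -0.23 (SE 1.08) and -0.99 (SE 1.22) in exons 4, 5 and 6, with limma adjusted p from 0.699 to 0.93. For SMF against control cells it was 0.44 (SE 0.47), -0.35 (SE 1.08) and 0.295 (SE 1.22), with limma adjusted p from 0.737 to 0.944. Standard errors near 1 leave room for a change of several-fold either way in exons 5 and 6.

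Exon 7, which Ptprc-204 skips, was at 0.47 (SE 0.83), 0.59 (SE 0.83) and 0.12 (SE 0.83) in the same 3 comparisons in limma, and was not called. Against the mean of exons 3 and 8 it stood at 61.4% and 105% in control and at 98.2% and 60.3% in SMF replicates 1 and 2. These exon levels overlapped between SMF and control cells, although Ptprc-204 was listed at 0 in control and made up 53.8% of the gene in both SMF libraries. Over all 33 exons 0 were called in control against unstimulated cells and 1 in each of the others, the last exon as it ends in Ptprc-207 alone.

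As a share of the constant coding exons, exon 4 was at 6.26% and 3.4% in unstimulated, 2.59% and 3.32% in control and 4.59% and 4.48% in SMF replicates 1 and 2. Exon 5 was at 1.93% and 11.8% in unstimulated, 7.32% and 3.78% in control and 1.93% and 10.2% in SMF replicates 1 and 2. Exon 6 was at 1.1% and 4.67% in unstimulated, 0% and 3.17% in control and 0.87% and 1.52% in SMF replicates 1 and 2. Of the 9 comparisons, 2 had groups without overlap, both in exon 4, with control below unstimulated and below SMF cells (two-sided exact permutation p = 0.333 each, adjusted 1 over the 9). In exon 5 replicates of the same group differed by up to 6-fold, more than any pair of its group means.

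Coverage of the variable exons was thin. Exon 5 had 0.66, 7.82, 1.88, 2.12, 2.44 and 9.48 reads per base in unstimulated replicates 1 and 2, control replicates 1 and 2, and SMF replicates 1 and 2. Coverage assigned to exon 6 within its own boundaries was 0 in control replicate 1, where Ptprc-210 was at 8.92 FPKM, and at most 3.09 reads per base in the others. Differences in these exons smaller than the replicate spread were not detectable at this depth.

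Coverage fell off towards the 5′ end of *Ptprc* in all 6 libraries, a feature examined after the exon values were seen. The level of exons 2 and 3 was 22.0% and 11.4% of that of the 23 constant exons from exon 10 on in unstimulated, 29.1% and 19.4% in control and 33.2% and 28.2% in SMF replicates 1 and 2. The transcripts with most of the signal were also thinly covered at their 5′ ends. The first exon of Ptprc-201, which is what sets it apart from the long forms, was covered at 5.95% and 3.48% of the level of its 23 shared exons in the unstimulated libraries, 0.08% and 2.28% in control and 12% and 6.10% in SMF replicates 1 and 2. For Ptprc-204 in the SMF libraries, its 4 exons up to exon 8 were covered at 11.4% and 7.23% of the shared exons, against 52.0% and 32.1% for Ptprc-203. Ptprc-203 stood at 24.6% and 21.0% in control replicates 1 and 2, and at 40.5% in unstimulated replicate 2. The exons of Ptprc-203 up to exon 8 had 2.06 and 2.30 reads per base in unstimulated, 3.11 and 5.78 in control and 20.3 and 7.19 in SMF replicates 1 and 2. FPKM per unit of coverage was 11.1 and 5.76, 11.9 and 4.61, and 3.22 and 3.66 in the same libraries. Unstimulated replicate 1 was thus nearer to the stimulated libraries in these exons than in its listed level. Its shared exons of Ptprc-203 had 0 reads per base. Shared 3′ exons therefore carried most of the level of Ptprc-201 and Ptprc-204, and of Ptprc-203 outside unstimulated replicate 1. The part of this slope, and of how shared reads were assigned, in the differences of these transcripts was not tested.

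The cells had been isolated with a negative selection kit, which is meant to remove other cell types. Markers of B cells, which carry the form of CD45 with all variable exons, moved with the same comparison. All 11 markers tested, of 12 listed, fell in control and in SMF against unstimulated cells, where 24.8% and 37.2% of all genes were called. Their summed level was 411 and 362 FPKM in unstimulated, 53.6 and 47.4 FPKM in control and 79.3 and 68.8 FPKM in SMF replicates 1 and 2. *Ighm* alone was at 24.96 and 36.9 FPKM in control and 68.5 and 65.1 FPKM in SMF replicates 1 and 2. The higher sum in SMF than in control cells lay in *Ighm*. In SMF against control cells, where 18.2% of all genes were called, *Ighm* was called higher and *Cd79a* lower. At the same median or sum *Cd79a* alone was called. *Ms4a1*, which encodes the B cell surface protein CD20, was at 13.8 and 10.07 FPKM in unstimulated, 0.86 and 0.67 FPKM in control and listed at 0 in both SMF libraries. Their part in the *Ptprc* shares was not tested.

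Of 10 myeloid markers 6 were tested, and 4 fell in control and 3 in SMF against unstimulated cells, where 24.8% and 37.2% of all genes were called. Their sum was 142 and 165 FPKM in unstimulated and between 47.0 and 53.8 FPKM in stimulated libraries, of which *Csf1r* made up 41.1 to 53.8 FPKM. *Lyz2* was at 42.4 and 74.0 FPKM in unstimulated libraries and listed at 0 in the others, and *S100a8* was listed at 0 in all 6. Of the 2 NK cell markers 1 fell in each comparison with unstimulated cells, with sums of 13.8 and 7.66 FPKM in unstimulated libraries and 0 in the others. *Cd4* was at 4.68 FPKM or less throughout and was called lower in SMF against unstimulated cells. Of 4 erythroid markers 1 was tested, *Alas2*, and fell in SMF against unstimulated cells, while *Hbb-bs* was listed at 0 throughout. Their part in the *Ptprc* values was not tested either.

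Genes of T cell state moved with stimulation. Among all genes 24.8% were called in control and 37.2% in SMF against unstimulated cells, and 18.2% in SMF against control cells. All 4 activation markers rose in both comparisons with unstimulated cells, such as *Il2ra*, the receptor chain for IL-2 (0.71 and 0.89 FPKM unstimulated, 52.4 to 113 FPKM stimulated). Of 4 resting markers 3 fell in both and *Ccr7* rose. Of 8 CD8 T cell markers, *Cd5* rose and *Cd8a* and *Cd8b1* fell in control cells, *Cd5* rose in SMF cells, and *Cd3d*, *Cd5* and *Cd8a* were called higher in SMF than in control cells. At the same median *Cd8a* in control cells was not called, and at the same protein-coding sum *Cd5* was not. On both of these scales *Cd8b1* was also called lower in SMF than in unstimulated cells.

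Of 11 regulators of CD45 splicing, *Hnrnpll* included, 2 rose and 0 fell in control against unstimulated cells, a share no higher than the 24.8% called over all genes, the median of the 11 being 0.46 on the log2 scale, and -0.05 for the 14991 genes. The other was *Elavl1*, which encodes the RNA-binding protein HuR (3.84 and 4.90 FPKM unstimulated, 8.58 and 11.1 FPKM control, log2 fold change 1.01, SE 0.40, limma adjusted p = 0.176). *Elavl1* was no longer called when libraries were scaled to the same sum over protein-coding genes. In SMF against unstimulated cells 5 rose and 0 fell, where 37.2% of all genes were called, with a median of 1.09 against 0.27. On that sum scale 3 of the 5 were called.

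*Ptbp1*, a repressor of many exons, was at 25.9 and 40.9 FPKM in unstimulated, 47.7 and 66.1 FPKM in control and 110 and 90.0 FPKM in SMF replicates 1 and 2 (SMF against unstimulated 1.58, SE 0.34, limma adjusted p = 0.0245). *Hnrnpl*, the close relative of *Hnrnpll* that also represses the variable exons, was at 99.1 and 46.1 FPKM in unstimulated, 119 and 87.4 FPKM in control and 195 and 173 FPKM in SMF replicates 1 and 2 (1.43, SE 0.40, limma adjusted p = 0.0494). *Pcbp2*, a binder of C-rich RNA, was at 49.7 and 93.1 FPKM in unstimulated, 53.0 and 125 FPKM in control and 270 and 225 FPKM in SMF replicates 1 and 2. These 3 genes were called in SMF and not in control against unstimulated cells, and of them *Pcbp2* alone was called in SMF against control cells. At the same protein-coding sum *Hnrnpl* was not called in SMF against unstimulated cells.

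In SMF against control cells 2 of the 11 were called, both higher, with a median of 0.42 against 0.32. That is the same share as the 18.2% over all genes. *Pcbp2* was higher by 1.59 (SE 0.49, limma adjusted p = 0.176) and *Sfswap*, a splicing regulator that acts on CD45 pre-mRNA, by 1.50 (SE 0.56, adjusted 0.214). With libraries shifted to the same median *Pcbp2* alone was called. *Sfpq* and *Thrap3*, whose proteins are linked to the splicing of exon 4 and to the kinase GSK3, were at 0.42 (SE 0.31) and 0.76 (SE 0.28) and were not called. *Gsk3b* ranged from 5.29 to 10.98 FPKM over the 6 libraries and was not called in any comparison, nor were *Srsf1* and *Celf2*.

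**Figure D5:**
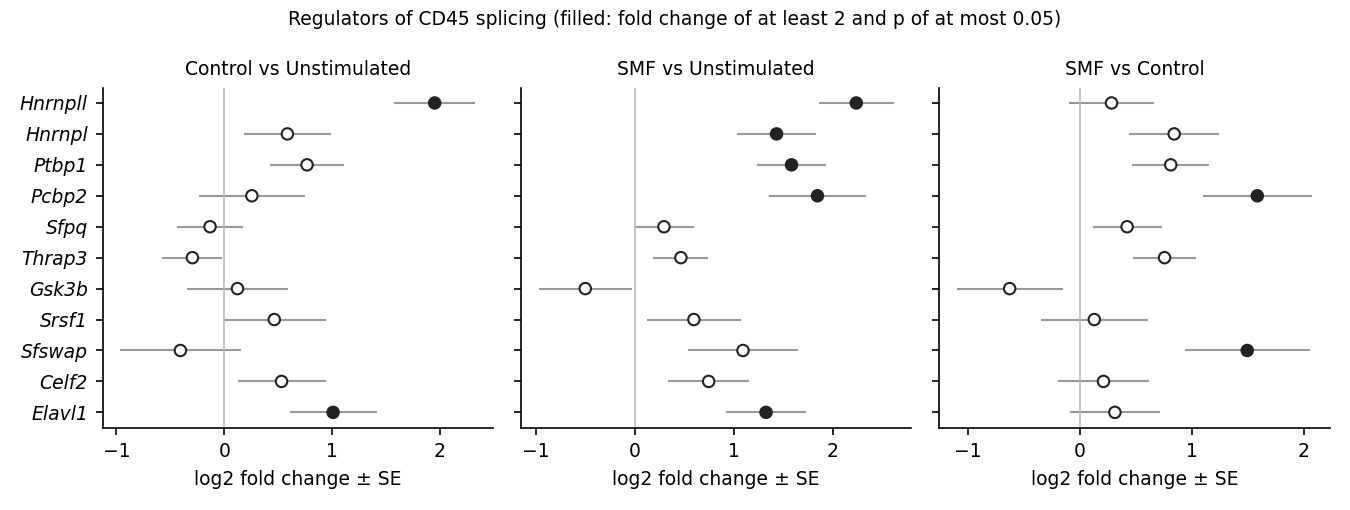
Log2 fold change with its standard error for 11 regulators of CD45 splicing in the 3 comparisons (limma on log2(FPKM + 1), 2 libraries per group), with filled points for genes called. Hnrnpll is filled in both comparisons with unstimulated cells, and Pcbp2 and Sfswap are filled for SMF against control.

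Among the 5 substrates of CD45, *Lck*, the kinase that starts receptor signalling, ranged from 118 to 177 FPKM and was not called. *Fyn*, its relative, was at 74.6 and 48.7 FPKM in unstimulated, 21.3 and 25.6 FPKM in control and 83.7 and 62.5 FPKM in SMF replicates 1 and 2. It fell in control against unstimulated cells (log2 fold change -1.33, SE 0.34, limma adjusted p = 0.0654) and was higher in SMF than in control cells (1.59, SE 0.34, adjusted 0.14). *Jak1*, a cytokine receptor kinase, fell in control against unstimulated cells (-1.50, SE 0.26, limma adjusted p = 0.0257), and at the same median or sum it was also called lower in SMF cells. *Cd247* and *Jak2* were not called. All genes gave 24.8% called in control and 37.2% in SMF against unstimulated cells, and 18.2% in SMF against control cells.

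Of 6 enzymes and adaptors that set the phosphorylation of these kinases, *Pag1*, the membrane anchor of the kinase Csk, fell in both comparisons with unstimulated cells (13.1 and 11.3 FPKM unstimulated, 1.29 and 0.86 FPKM control, 4.73 and 2.39 FPKM SMF). *Ptpn2*, a phosphatase, was higher in SMF than in unstimulated cells (1.09, SE 0.39, limma adjusted p = 0.0889), and not on either other scale. The kinase gene *Csk* and the other 3 were not called in any comparison. Calls over all genes were 24.8% in control and 37.2% in SMF against unstimulated cells.

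Of 7 genes for proteins bound to CD45, the galectin genes *Lgals1* and *Lgals3* rose in both comparisons with unstimulated cells, although at the same protein-coding sum *Lgals3* was not called in control cells. *Lgals1*, whose product binds the sugars of CD45, was at 33 and 24.3 FPKM in unstimulated, 109 and 109 FPKM in control and 331 and 284 FPKM in SMF replicates 1 and 2, and was higher in SMF than in control cells (1.48, SE 0.26, limma adjusted p = 0.136). *Cd22*, a B cell lectin that is also in the B cell marker list, fell in both and *Cd4* in SMF cells. *Ptprcap*, which encodes the small membrane partner of CD45, ranged from 46.4 to 102 FPKM and was not called, nor were *Skap1* and *Cd2*. At the same protein-coding sum *Skap1* was called lower in control than in unstimulated cells. The unscaled fit called 24.8% of all genes in control and 37.2% in SMF against unstimulated cells, and 18.2% in SMF against control cells.

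Of 20 other receptor-type phosphatase genes 4 passed the filter on low values. Shares called over all genes were 24.8% in control and 37.2% in SMF against unstimulated cells. *Ptprs* rose in both comparisons with unstimulated cells (3.86 and 5.64 FPKM unstimulated, 30.4 and 22.8 FPKM control, 16.1 and 15.4 FPKM SMF), and was called lower in SMF than in control cells at the same median or sum alone. *Ptpra*, *Ptpre* and *Ptprj* were not called and stayed between 0.52 and 20.9 FPKM. The sum over all 20 was 24.2 to 42.9 FPKM, against 235 to 392 FPKM for *Ptprc* alone.

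The patterns most like those of *Ptprc* and *Hnrnpll* were found as the smallest root mean square difference of centred log2(FPKM + 1) values over the 6 libraries, among the 9393 other genes whose mean reached 5 FPKM. For *Ptprc* these were *Coro1a* (0.08), *Cap1* (0.08), *B3galnt2* (0.09), *Usp7* (0.10) and *Grb2* (0.10). *Coro1a*, the actin-binding coronin of leukocytes, was at 174.6 and 167 FPKM in unstimulated, 135 and 112 FPKM in control and 188 and 189 FPKM in SMF replicates 1 and 2. For *Hnrnpll* they were *Topbp1* (0.12), *Txnrd2* (0.13), *Tceal9* (0.16), *Crtam* (0.18) and *Ap3b1* (0.19). *Topbp1*, a DNA replication and damage factor, was at 12.4 and 13.5 FPKM in unstimulated, 59.1 and 52.7 FPKM in control and 83.5 and 57.3 FPKM in SMF replicates 1 and 2. These are descriptions over 6 libraries that share their groups and folders.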

How the data were processed

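RNA-Seq libraries were made from total RNA of CD8+ T cells with a stranded kit, and grouped by sample title. Per the labels, the authors used Trimmomatic 0.36, HISAT2 (version not given in the sources used here) and StringTie on mm10. Per the file headers, StringTie 1.3.5 was run on the annotated transcripts of GENCODE M19 with reads treated as stranded. The deposited files give FPKM and TPM, normalized by the authors for transcript length and library size, and coverage (reads per base), which is not normalized. A deposited gene table was left out, since the names of its 3 value columns fit no sample. Gene FPKM was summed over transcripts. FPKM per unit of coverage, a constant of each library, put exon coverage on the FPKM scale. Exons shared by coordinates were summed over transcripts, and for *Hnrnpll* all coverage overlapping an exon was summed.

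On log2(value + 1), limma 3.58.1 (R 4.3.3) was run with the 3 groups in 1 model, a variance trend and 3 residual degrees of freedom, after a check on simulated data. The scale understates changes of low genes. Filters were a mean of 1 FPKM for genes and transcripts, and of 5 FPKM for the gene in exon and share fits, where exons and shares were taken relative to the gene. Calls used the study's thresholds, with Benjamini-Hochberg adjustment over all features. Shares were compared with exact permutation tests in Python 3.11.15 (scipy 1.17.1). The files used hold no read counts, so no counting intervals are given. Gene types and sequences came from GENCODE M21 (54409 gene identifiers matched, 37 did not). Exons of no other gene overlapped those of either gene. The members and lists were chosen with earlier results of these data known. The rule for named genes was both members with every transcript, *Ptprc* exons 3 to 8, the 11 splicing regulators and the lists of substrates, opposing enzymes, bound proteins, receptor-type phosphatases and cell markers, and the 5 genes most like each member.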

Additional observations from a re-analysis of the deposited data

How the results depend on the processing

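The rise of *Hnrnpll* with stimulation was called under all 13 alternatives run for it in each comparison with unstimulated cells (log2 1.84 to 2.16 for control and 1.80 to 2.49 for SMF), with limma adjusted p from 0.031 to 0.117 and from 0.0143 to 0.106. The small difference of *Hnrnpll* between SMF and control cells turned to -0.057 with 1 median over genes and to -0.034 with 1 sum over protein-coding genes, and that of *Ptprc* between SMF and unstimulated cells to -0.16 and -0.39, since the libraries were scaled to each other. *Ptprc* was called at the gene level under none of its 13 alternatives. Leaving out 1 library at a time gave *Ptprc* exon 4 from -1.03 to -0.14 (control against unstimulated), -0.59 to 0.30 (SMF against unstimulated) and 0.26 to 0.62 (SMF against control). It gave exon 5 from -1.09 to 1.33, -1.44 to 0.97 and -1.45 to 0.74, and exon 6 from -3.01 to 0.45, -1.89 to -0.09 and -1.44 to 2.03, in the same order. Exon 6 was called lower in control than in unstimulated cells when control replicate 2 was left out (-3.01, limma adjusted p = 0.26). Against the flanking exons, exon 4 was at -0.78 for SMF against unstimulated cells.

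The percentage with a variable exon differed by -26.9 points for SMF against unstimulated and 1.48 for SMF against control with complete transcripts alone. With exon 7 counted among the variable exons it differed by 15.1 points for control against unstimulated and -65.1 for SMF against control. These alternatives and leaving out libraries for the percentages were chosen after seeing the data, as was a fit without exons at 0, and the cause of the changes was not tested. For transcripts, leaving out a library turned the level of Ptprc-213 (-0.33 to 1.85 for control and -2.65 to 0.53 for SMF, both against unstimulated), its share for SMF against unstimulated (-2.83 to 0.52), and the share of Ptprc-204 for control against unstimulated (-4.28 to 0.39). The level of Ptprc-204 in that comparison ran from -4.73 to 0, the last without unstimulated replicate 2, when both groups are listed at 0. With a pseudocount of 0.1 the calls of the Ptprc-203 share in control (4.46) and of the Ptprc-204 share in SMF (6.86), both against unstimulated cells, were lost.

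Replicate numbers were shared by the groups, but the labels do not say that they mark a pair. They follow the dated folders in unstimulated and control libraries, whereas both SMF libraries came from the same folder. A block on replicate number is therefore no test of folder in comparisons with SMF cells. With the replicate block *Hnrnpll* was at 1.95 (SE 0.41, limma adjusted p = 0.049) for control against unstimulated cells, and the Ptprc-201 share in SMF against control cells was no longer called (-1.93, adjusted 0.721). The block changed no other call of the 39 values run with it. Deviations from group means correlated across genes at 0.03, 0.10 and 0.02 between same-numbered libraries, so no pairing was taken. With 2 libraries per group and at most 9.48 reads per base over the variable exons 4 to 6, replicate spread limits every statement on them.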
